A study of Rattus norvegicus with 6 samples.

Results

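The mucins and the glycosyltransferases that build mucin-type sugar chains were examined in rat prostate RNA, with and without implanted testosterone and estradiol. Members were the rows of the deposited expression table whose symbol begins with Galnt, Gcnt, Muc, Fut, B3gnt, B4galt, B3galt, C1galt, St3gal, St6gal, St6galnac or St8sia followed by a digit. This gave 78 of the 32883 genes in the table. Of these, 56 had enough counts to be tested, 20 had counts but did not pass the count filter and 2 were listed at 0 in every library.

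The series held 6 libraries of Rattus norvegicus prostate tissue, 3 hormone and 3 control. Hormone rats carried 4 subcutaneous pellets for 4 weeks, each pellet made with testosterone (25 mg) and estradiol (2.5 mg), and control rats had only a skin incision closed with staples. Controls carried no blank pellet, so the hormones and the pellet cannot be told apart. The time from incision to tissue is not given for controls. Strain, age and prostate lobe are not given in the labels, and 1 label reads BPH for both groups, controls included. The labels do not say whether the 3 tissues of a group are from different animals, and p-values then cover only the variation among the libraries. All 8 luminal epithelial markers and 4 of the 6 prostate secretion genes were expressed in the labelled tissue, the secretion list at a summed 26417 to 32380 FPKM (the authors' counts divided by gene length and library total) in hormone libraries and 28317 to 43869 FPKM in control libraries, with Krt8 at 453 to 548 CPM in hormone libraries and 249.7 to 290.0 CPM in control libraries. CPM are counts divided by the library total and set to a common scale, here adjusted with TMM factors (edgeR's correction for library composition). Total counts were 13744680 to 15949500 in hormone libraries and 12931982 to 15809858 in control libraries.

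Mucins are large glycoproteins whose serines and threonines carry dense O-linked sugar chains, and they coat and lubricate gland lumens. A Galnt enzyme starts each chain by adding N-acetylgalactosamine, C1galt1 with its chaperone C1galt1c1 extends it with galactose to core 1, and Gcnt enzymes add an N-acetylglucosamine branch. B3gnt, B3galt and B4galt enzymes lengthen the branches, and fucosyltransferases (Fut) and sialyltransferases (St3gal, St6gal, St6galnac, St8sia) cap them. Several of these enzymes also act on N-linked chains and glycolipids.

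Gcnt3, Galnt7 and Galnt11 rose under the hormone pellets and no member fell by the main test. The sequences around their start sites are shown because these 3 genes are the members that passed the test. Each runs from 250 bases before the annotated start to 50 after it, 5′ to 3′ on the gene's strand, from RefSeq on build GRCr8. The Gcnt3 window lies at chr8:79573508-79573807 on the minus strand and the Galnt7 window at chr16:37589172-37589471 on the plus strand. The Galnt11 window lies at chr4:10604925-10605224 on the minus strand. Capitals mark every match on either strand to the motifs named after the sequences.
Gcnt3: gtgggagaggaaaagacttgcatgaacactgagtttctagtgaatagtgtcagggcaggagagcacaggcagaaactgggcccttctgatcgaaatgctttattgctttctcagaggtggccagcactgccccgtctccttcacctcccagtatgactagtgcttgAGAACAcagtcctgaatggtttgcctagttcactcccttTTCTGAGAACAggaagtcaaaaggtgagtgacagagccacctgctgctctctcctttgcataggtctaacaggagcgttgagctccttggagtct
Galnt7: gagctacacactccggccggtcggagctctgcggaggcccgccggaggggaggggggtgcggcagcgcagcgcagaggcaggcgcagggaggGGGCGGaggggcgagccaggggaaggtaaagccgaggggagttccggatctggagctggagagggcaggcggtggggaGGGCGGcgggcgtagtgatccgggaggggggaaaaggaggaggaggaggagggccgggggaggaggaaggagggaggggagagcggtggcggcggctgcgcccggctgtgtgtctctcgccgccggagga
Galnt11: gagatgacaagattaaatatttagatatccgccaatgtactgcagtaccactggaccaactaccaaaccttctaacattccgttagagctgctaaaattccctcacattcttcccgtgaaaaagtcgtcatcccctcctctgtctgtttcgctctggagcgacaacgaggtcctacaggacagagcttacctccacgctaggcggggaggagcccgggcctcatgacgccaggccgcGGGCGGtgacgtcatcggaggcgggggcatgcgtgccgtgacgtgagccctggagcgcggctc

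The motifs searched were the full estrogen response element (GGTCA and TGACC with 3 bases between them), the full androgen response element (AGAACA and TGTTC with 3 bases between them), the single receptor sites AGGTCA and AGAACA, the STAT site TTCNNNGAA, the TATA box TATAAA and the GC box GGGCGG. In the Gcnt3 window AGAACA occurred 84 and 40 bases before the start, and TTCNNNGAA 45 bases before it, overlapping the second AGAACA. In Galnt7 GGGCGG occurred 158 and 80 bases before the start, and in Galnt11 it occurred 13 bases before. Neither full element was found in the 57 members matched to a RefSeq window by symbol, and in all 33469 windows they occurred in 0.0269% (estrogen) and 0.0388% (androgen). AGAACA occurred in 6 of the 57 member windows, 10.5%, against 20.7% of all windows. TTCNNNGAA was found in 7 of 57, 12.3% against 8.87%, and GGGCGG in 29 of 57, 50.9% against 33.1%. AGGTCA occurred in 8 of 57, 14.0% against 16.2%, and TATAAA in 5 of 57, 8.77% against 14.2%. The Gcnt3 window held 3 CpG dinucleotides at 50.3% G and C, the Galnt7 window 28 at 74.3%, and the Galnt11 window 22 at 56.7%. The median over the member windows was 12 CpG and over all windows 7. A match in such a window describes its letters and does not show that a factor binds there.

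Gcnt3 makes the core 2, core 4 and I branches and is known as the mucin-type member of its family. It had 340.1, 177 and 269.8 CPM in hormone 1, 2 and 3, against 4.92, 4.01 and 7.12 CPM in control 1, 2 and 3. The groups lay far apart, and hormone 2, the lowest of its group, was still far above the highest control. The log2 fold change was 5.61 ± 0.33 (SE, n = 3 per group), which is 49-fold (edgeR adjusted p = 0.00157). Gcnt3 was called with each of the 6 libraries left out in turn, with an adjusted p of at most 0.0196, and in all 11 other settings. In the table's coordinates, whose genome build none of the sources names, Gcnt3 (ENSRNOG00000059540) spans 76449081 to 76452554 of chromosome 8 and overlaps no other gene. The 3 genes tested within 100 kb of it, LOC103695118, Bnip2 and AABR07070599.1, had log2 fold changes of -0.15, 0.05 and -0.91, and none of them passed (adjusted p = 0.569, 0.859 and 0.170).

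**Figure D1:**
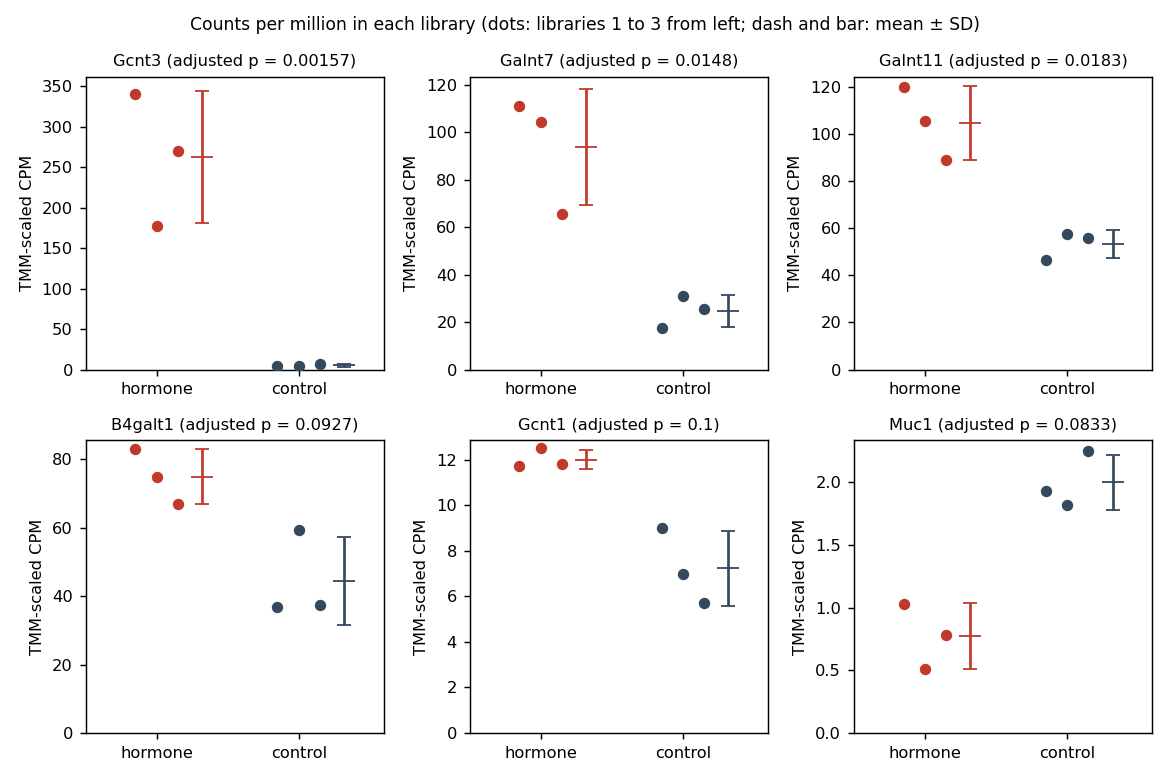
TMM-scaled CPM in each hormone library (red, left) and control library (dark, right), with dots for libraries 1 to 3 from left to right and the mean ± SD beside them, for the 3 called members and for B4galt1, Gcnt1 and Muc1. Each axis starts at 0, and B4galt1, Gcnt1 and Muc1 were not called. The hormone and control dots do not overlap in the 6 genes shown. The same holds for 14 of the 56 members tested (25.0%) and 31.3% of all genes tested. Gcnt3 spans 177 to 340.1 CPM in hormone libraries and 4.01 to 7.12 CPM in control libraries.

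The order of the members by level changed at the top. Levels between genes are compared in FPKM, which take gene length into account. Gcnt3 ranked 1 of 78 members in hormone libraries, with 128 ± 40.8 FPKM (SD, n = 3), and 37 of 78 in control libraries, with 2.84 ± 0.77 FPKM. It held 18.8% ± 4.95 of the FPKM summed over all members in hormone libraries and 0.544% ± 0.17 in control libraries. Without Gcnt3 the sum over the other members was 546 ± 12.6 FPKM in hormone libraries and 525 ± 43.0 FPKM in control libraries. On this scale the difference was smaller than the control SD. FPKM carry no composition factor, while the TMM factors were 0.932 to 0.975 in hormone and 1.01 to 1.09 in control libraries. TMM scaling would raise the hormone sums and lower the control sums, and the sums were not computed with it. The next highest members were the same in both groups, namely B3gnt5, Fut2 and B4galt3, which ranked 2, 3 and 4 in hormone libraries and 1, 3 and 2 in control libraries. Across the 78 members, 47 had a mean of at least 1 FPKM over all libraries and 17 of at least 10 FPKM.

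**Figure D2:**
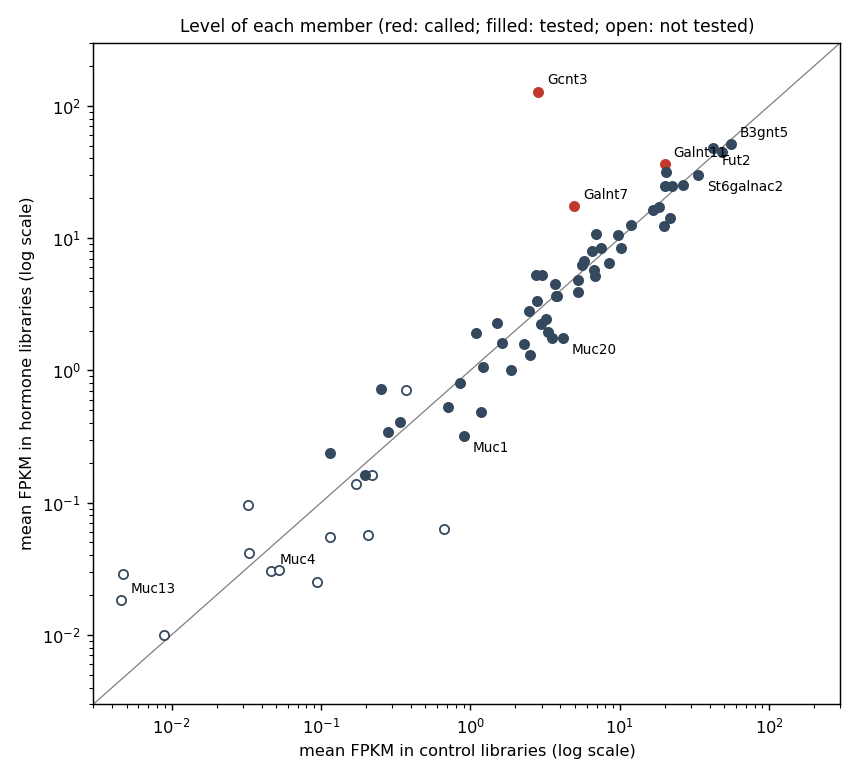
Mean FPKM of each member in control libraries (horizontal, log scale) and hormone libraries (vertical, log scale), for the 70 members with a mean above 0 in both groups. Red points are the 3 called members, filled points were tested and open points were not, and the line marks equal levels. Gcnt3 stands at 128 FPKM in hormone and 2.84 FPKM in control libraries, while B3gnt5 and Fut2 lie near the line.

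Counts over the whole set were modest outside Gcnt3. By edgeR's quasi-likelihood test, with p-values adjusted over all 14003 genes tested, 3 of 56 members rose, 5.36%, where 2.39% of all genes tested were called higher. None of the 56 was called lower, where 0.886% of all genes were, and calls in either direction made up 3.27% of all genes. At an unadjusted p under 0.05, 12 members were higher (21.4%, against 12.1% of all genes) and 4 were lower (7.14%, against 10.6%). DESeq2, a second count test run without edgeR's count filter, fitted 76 members and called 6 higher and 0 lower. Of the 15976 genes to which it gave an adjusted p, it called 5.66% higher and 3.68% lower. Some of the 76 members got no adjusted p, so no member share is set beside these. The median log2 fold change of the 56 was 0.08, beside -0.00 over all genes tested, and its sign depended on the scaling. With library totals only, where the median of all genes moved to -0.13, the members' median was -0.05. That scaling also set the share of higher calls among all called genes at 53.0%, against 72.9% with TMM, while the members' calls stayed at 3 higher and 0 lower. In 14 of the 56 members, 25.0%, the 3 hormone libraries were all on 1 side of the 3 control libraries, against 31.3% of all genes tested, with hormone above control in 12 (21.4%, against 16.1%) and below in 2 (3.57%, against 15.3%). For 37 members the log2 fold change lay within 0.5 of 0.

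The count of 3 depended on single libraries. Without hormone 1, hormone 2 or control 2 it was 1, Gcnt3 alone, and without control 1 it was 4. Each of these fits also had fewer residual degrees of freedom. Control 3 was the lowest library for 17 of the 56 members, 30.4%, against 17.4% of all genes tested, and control 1 was the lowest for another 17, 30.4% against 27.4%.

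**Figure D3:**
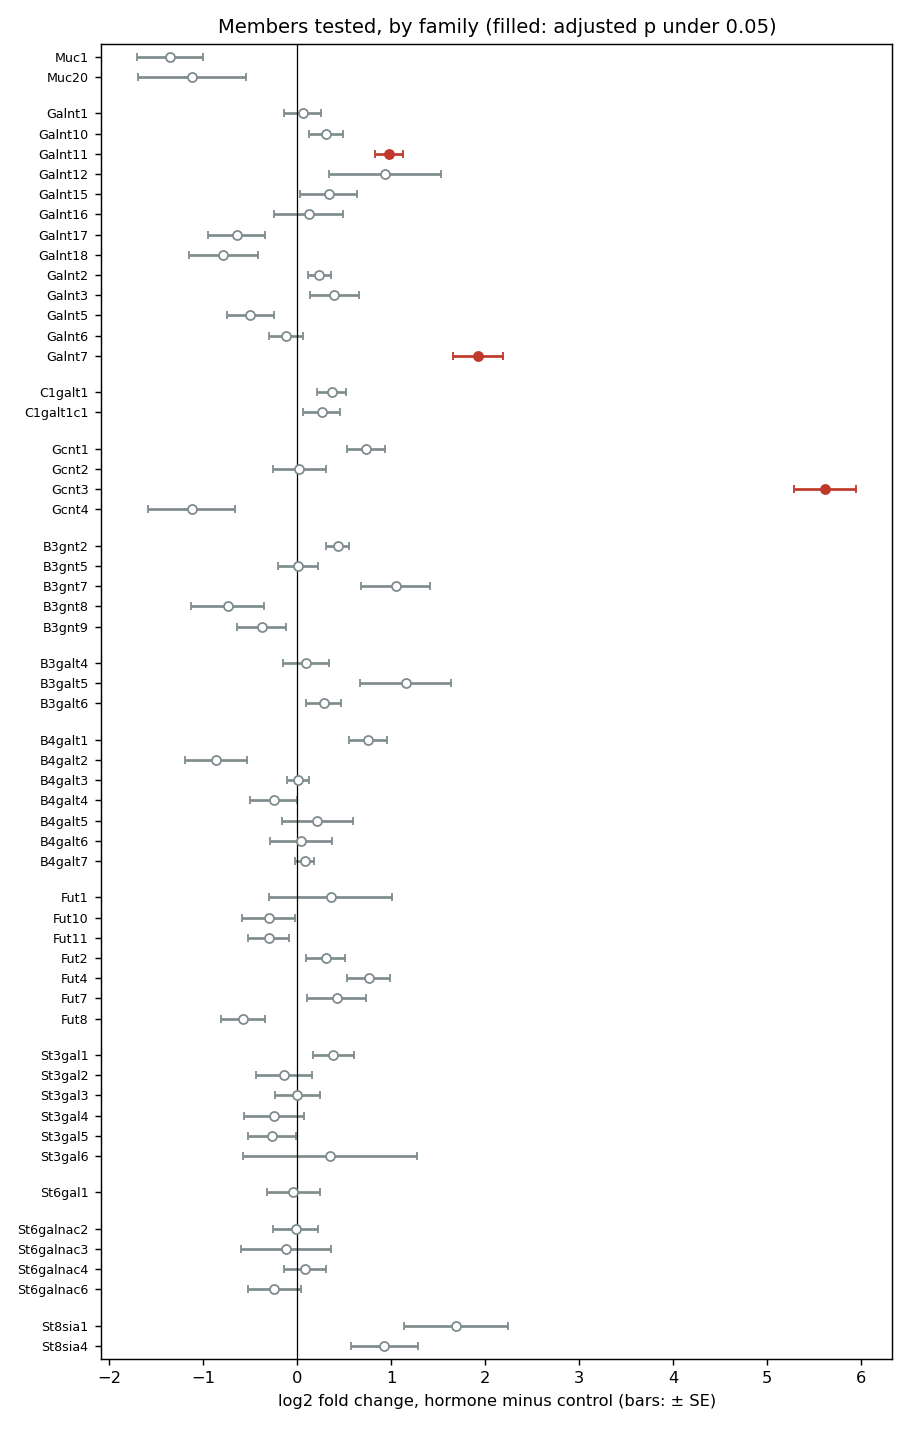
Log2 fold change of hormone over control (horizontal, bars ± SE) for the 56 members tested, grouped by family from mucins at the top to St8sia at the bottom. Filled red points passed an adjusted p of 0.05. Gcnt3 stands at 5.61, Galnt7 at 1.92 and Galnt11 at 0.98, and 37 points lie within 0.5 of 0.

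Transcripts of the mucins with a row in the table were scarce in both groups. Of the 7 Muc members in the table, Muc1 and Muc20 were tested, and the summed level of all 7 was 1.29 to 3.98 FPKM in hormone libraries and 4.44 to 6.01 FPKM in control libraries. Muc1, a membrane mucin of gland epithelia, had 1.03, 0.509 and 0.781 CPM in hormone libraries against 1.93, 1.82 and 2.25 CPM in control libraries. All 3 hormone values were below all 3 control values, but Muc1 missed the threshold (log2 fold change -1.35 ± 0.35, adjusted p = 0.0833). Muc20, a membrane mucin, had 1.22, 1.53 and 6.02 CPM in hormone libraries against 5.85, 7.77 and 5.20 CPM in control libraries, and hormone 3 lay among the controls (log2 fold change -1.12, adjusted p = 0.292). The membrane mucins Muc15, Muc4 and Muc13 summed to 28, 9 and 4 counts in the hormone group and 34, 12 and 1 in the control group. Of the gel-forming mucins, Muc5b and Muc6 had a row and were near 0. Muc5b had 0 counts in hormone and 3 in control libraries, and Muc6 had 2 in hormone and 0 in control libraries. No row carried the symbol Muc2, Muc5ac or Muc19, so the levels of these mucins are not known here. Muc15 lies within the span of Ano3, which had 1 count in all, and Muc4 lies 7111 bases from Muc20.

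Galnt7 and Galnt11 were the called members among the enzymes that start the chains. Galnt7 prefers peptides that already carry a first N-acetylgalactosamine. It had 111, 104 and 65.6 CPM in hormone libraries against 17.3, 30.9 and 25.7 CPM in control libraries, with hormone 3 the lowest of its group and no overlap. The log2 fold change was 1.92 ± 0.27, 3.80-fold (adjusted p = 0.0148). Galnt11, known to modify receptors of the LDL receptor family, had 120.2, 105 and 88.8 CPM in hormone libraries against 46.4, 57.5 and 55.8 CPM in control libraries. Its groups did not overlap either, and the log2 fold change was 0.98 ± 0.15, 1.97-fold (adjusted p = 0.0183). Both calls were lost without hormone 1, hormone 2 or control 2, with adjusted p values of up to 0.0687 for Galnt7 and 0.0843 for Galnt11. Both were also lost with limma on log2(FPKM + 1) without a filter on low values (adjusted p = 0.0589 for Galnt7 and 0.0770 for Galnt11). With the replicate number added to the edgeR model, Galnt11 was lost (adjusted p = 0.0534) and Galnt7 was kept (adjusted p = 0.0368). Over the 6 sets with 1 library left out, the log2 fold change ranged from 1.73 to 2.13 for Galnt7 and from 0.87 to 1.09 for Galnt11. Galnt11 (ENSRNOG00000008117) spans 6297258 to 6330765 of chromosome 4, where 2 genes without a gene symbol overlap it, with 5 and 0 counts. Galnt7 (ENSRNOG00000012037) spans 35934970 to 36062719 of chromosome 16 and overlaps no other gene.

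The other 11 Galnt members tested did not pass, with log2 fold changes of -0.79 to 0.94. Galnt1, a broadly expressed enzyme, had 47.8, 59.2 and 49.9 CPM in hormone libraries against 36.7, 61.9 and 51.8 CPM in control libraries (adjusted p = 0.883). Galnt5 had 91.8, 102 and 106 CPM in hormone libraries against 87.2, 159 and 178 CPM in control libraries, where control 1 was as low as the hormone libraries (adjusted p = 0.277). Without control 1, Galnt5 was called lower (adjusted p = 0.0283). Galnt12 was high in 1 library, with 4.57, 18.5 and 5.70 CPM in hormone libraries and 5.78, 2.49 and 6.80 CPM in control libraries (adjusted p = 0.381). Within the family, Galnt11 held 26% ± 2.36 of the summed FPKM in hormone libraries and 17.1% ± 0.93 in control libraries, and Galnt5 held 10.3% ± 1.54 and 18.2% ± 4.12. Summed over all 16 Galnt genes the level was 139 ± 14.9 FPKM in hormone and 117 ± 16.4 FPKM in control libraries. The ranges overlapped in FPKM (122 to 148 and 99.9 to 132), which carry no composition factor. TMM scaling would move the groups further apart, and whether the sums overlap with it was not computed. Galnt9, a member that did not reach the count filter, summed to 8 counts in the hormone group and 87 in the control group, of which control 2 held 58 and control 3 held 1.

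Neither gene of the core 1 step passed. C1galt1, the core 1 galactosyltransferase, had 50.6, 42.4 and 43.8 CPM in hormone libraries against 38.5, 39.2 and 28.4 CPM in control libraries. Its groups did not overlap, but C1galt1 missed the threshold (log2 fold change 0.37 ± 0.16, adjusted p = 0.217). Its chaperone C1galt1c1 had 31.5, 37.6 and 33.1 CPM in hormone libraries against 20.8, 30.2 and 34.2 CPM in control libraries (adjusted p = 0.453).

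Among the branching enzymes the leading gene differed between the groups. Gcnt3 held 85.8% ± 4.22 of the summed Gcnt FPKM in hormone libraries and 12.1% ± 3.40 in control libraries. Gcnt2, which makes the I branch on polylactosamine chains, held 12.2% ± 3.62 in hormone and 75.7% ± 9.27 in control libraries. This shift came without a called change in Gcnt2 itself, which had 90.5, 92.9 and 137 CPM in hormone libraries against 65.1, 121 and 129.6 CPM in control libraries (log2 fold change 0.02 ± 0.28, adjusted p = 0.970). Gcnt1, the core 2 enzyme of leukocytes and many epithelia, had 11.7, 12.5 and 11.8 CPM in hormone libraries against 8.99, 6.99 and 5.71 CPM in control libraries. Its hormone values were all higher and close together, but edgeR did not call it (log2 fold change 0.73 ± 0.21, adjusted p = 0.10) while DESeq2 did (adjusted p = 0.0257). Gcnt4, another core 2 enzyme, had 0.451, 1.02 and 0.625 CPM in hormone libraries against 2.07, 0.911 and 1.6 CPM in control libraries (adjusted p = 0.208). Gcnt7 was listed at 0 in all 6 libraries, which allows up to 0.218 CPM in a hormone library and 0.232 CPM in a control library (3 counts of the unscaled total). It lies inside the span of Rtfdc1, which had 6275 counts, and how reads in overlapping genes were counted is not known from the sources.

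**Figure D4:**
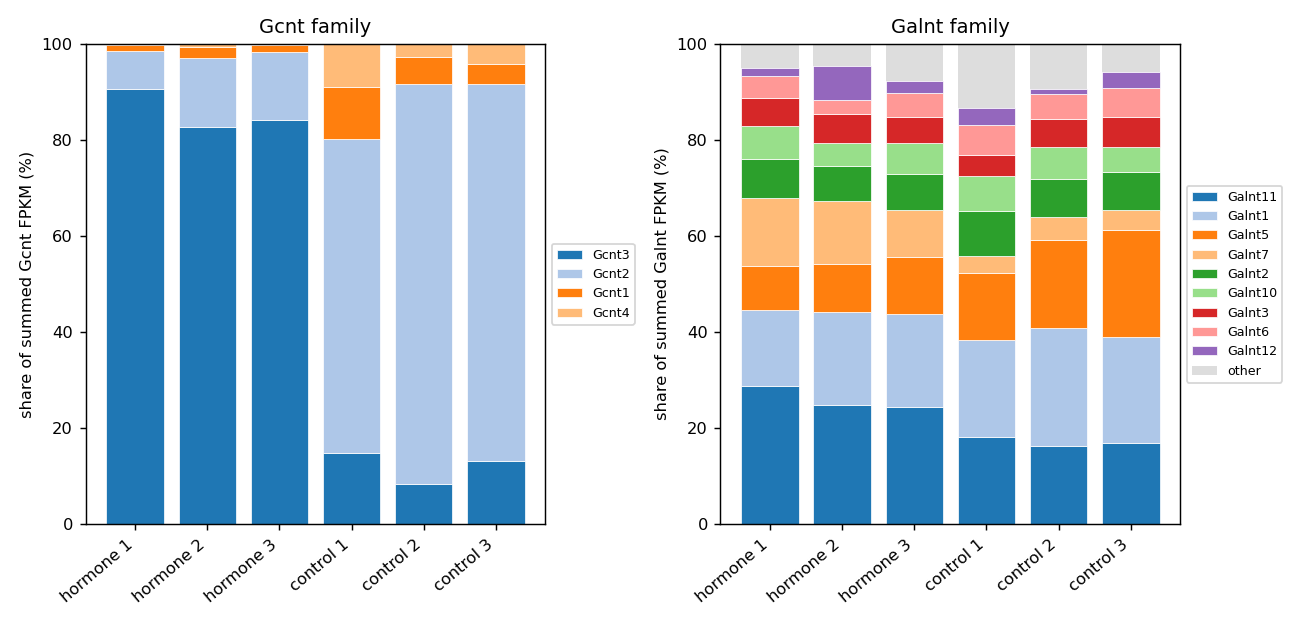
Share of the summed FPKM of the Gcnt family (left) and the Galnt family (right) held by each member, in percent, for hormone 1 to 3 and control 1 to 3. Gcnt3 fills 82.7% to 90.6% of the Gcnt bar in hormone libraries and 8.34% to 14.9% in control libraries, and the Galnt bars are shared among many members in both groups.

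None of the 15 tested members that lengthen or galactosylate the chains passed, out of 20 in the B3gnt, B3galt and B4galt families. B3gnt5, which starts lacto-series glycolipids, had 171, 248 and 258 CPM in hormone libraries against 171, 257 and 245 CPM in control libraries (log2 fold change 0.01, adjusted p = 0.985). B3gnt2, the main polylactosamine enzyme, had 67.0, 76.7 and 84.5 CPM in hormone libraries against 52.7, 60.8 and 55.6 CPM in control libraries, with no overlap (log2 fold change 0.43 ± 0.12, adjusted p = 0.103). B4galt1, which adds galactose to N-acetylglucosamine and forms lactose synthase in the mammary gland, came closest to passing among these. It had 83.0, 74.8 and 67.0 CPM in hormone libraries against 36.9, 59.3 and 37.4 CPM in control libraries, where control 2 was the highest control (log2 fold change 0.75 ± 0.20, adjusted p = 0.0927, DESeq2 adjusted p = 0.0216). B4galt3, of the same enzyme group, had 88.1, 97.5 and 97.0 CPM in hormone libraries against 83.1, 100.2 and 98.3 CPM in control libraries (adjusted p = 0.984). B3galt5, which makes type 1 chains, had 0.708, 1.24 and 2.03 CPM in hormone libraries against 0.499, 0.486 and 0.770 CPM in control libraries (adjusted p = 0.211). B3galt6, which builds the linker of proteoglycan chains, had 15.2, 14.0 and 12.9 CPM in hormone libraries against 9.20, 12.5 and 13.0 CPM in control libraries (adjusted p = 0.396). The groups overlapped for both B3galt genes. B3gnt7, a keratan sulfate enzyme, had a log2 fold change of 1.05 without passing (adjusted p = 0.157). B3gnt3, B3gnt4, B3gnt6, B3galt1 and B3galt2 had at most 7 counts in any library.

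Of the fucosyltransferases, 7 of 8 were tested and 0 passed with edgeR. Fut2, the secretor enzyme that makes H antigen on secreted glycans, was the most abundant, with 124, 154 and 169 CPM in hormone libraries against 86.1, 137 and 139 CPM in control libraries. Control 1 was the low value, and the difference missed the threshold (log2 fold change 0.30 ± 0.21, adjusted p = 0.416). Fut4, which makes Lewis x structures, had 44.0, 37.3 and 53.2 CPM in hormone libraries against 18.3, 32 and 29.0 CPM in control libraries, with no overlap (log2 fold change 0.76 ± 0.23, adjusted p = 0.119, DESeq2 adjusted p = 0.0458). Fut8, which adds the core fucose of N-glycans, had 50.3, 29.9 and 28.2 CPM in hormone libraries against 52.2, 61.4 and 48.1 CPM in control libraries, where hormone 1 lay among the controls (log2 fold change -0.58, adjusted p = 0.202). Fut1 lies 29199 bases from Fut2 and had 0.391 to 2.11 CPM in hormone libraries and 0.428 to 1.41 CPM in control libraries. Fut9, untested, had 5 counts over the hormone and 11 over the control libraries.

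Of the 20 sialyltransferases, 13 were tested and 0 passed with edgeR or DESeq2. The smallest adjusted p among the 11 tested St3gal, St6gal and St6galnac members was 0.342, for St3gal1, which caps core 1. St3gal1 had 42.0, 28.7 and 30.3 CPM in hormone libraries against 29.7, 28.7 and 19.0 CPM in control libraries. St6galnac2, which adds sialic acid to the first N-acetylgalactosamine, was the most abundant, with 66.5, 52.3 and 71.0 CPM in hormone libraries against 84.4, 63.6 and 44.3 CPM in control libraries (adjusted p = 0.971). The control libraries spanned the whole hormone range. St3gal2 had 34.6, 26.5 and 23.2 CPM in hormone libraries against 38.7, 36.3 and 18.1 CPM in control libraries (adjusted p = 0.805), and St6gal1, which caps N-glycans, 12.5, 9.59 and 10.5 CPM against 14.1, 12.6 and 6.87 CPM (adjusted p = 0.946). St6galnac6 had 5.79, 5.16 and 7.66 CPM in hormone libraries against 9.56, 7.35 and 5.13 CPM in control libraries (adjusted p = 0.633). The groups overlapped for all of these genes, and St3gal2 overlaps Ddx19b, which had 3452 counts in all. St6gal2 was listed at 0 in every library, and St6galnac1 had 1 count in each group.

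St3gal6 was high in 1 library of each group, with 5.28, 20.2 and 3.83 CPM in hormone libraries and 2.14, 2.61 and 18.2 CPM in control libraries (log2 fold change 0.35 ± 0.92, adjusted p = 0.854). Semg1, a seminal vesicle secretion gene, was highest in the same 2 libraries, with 4570, 8971 and 3481 CPM in hormone libraries and 3855, 1074 and 23733 CPM in control libraries. In the seminal vesicle list 3 of the 5 genes in the table were at 0 in all libraries, and the list's summed level was 2208 to 5900 FPKM in hormone and 810 to 16257 FPKM in control libraries. Its part in the St3gal6 values was not tested.

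The St8sia genes, which add sialic acid to sialic acid, were low. St8sia1, the GD3 ganglioside synthase, had 1.54, 1.38 and 1.17 CPM in hormone libraries against 0.785, 0.364 and 0.128 CPM in control libraries (log2 fold change 1.69 ± 0.55, adjusted p = 0.139). St8sia4, a polysialic acid enzyme, had 4.51, 2.91 and 2.19 CPM in hormone libraries against 1.57, 2.07 and 1.41 CPM in control libraries (log2 fold change 0.93 ± 0.35, adjusted p = 0.179). The hormone values were above the control values for both, and neither passed. The leukocyte list was also higher in hormone libraries, with a summed level of 83.1 to 150 FPKM in hormone and 42.7 to 70.3 FPKM in control libraries and all 8 of its tested genes above 0 in fold change. Of these 8 genes edgeR called 0, and over the whole list DESeq2 called 5 higher. The part of leukocytes in the values of St8sia1, St8sia4 and Gcnt1 was not tested. In tissue RNA, more cells of a type and more RNA per cell cannot be told apart.

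Genes that supply, extend and remove these sugars were called in both directions. The list, 96 genes in the table that are not members, had 74 tested, of which 4 rose and 2 fell. Over all genes tested, 2.39% were called higher and 0.886% lower. The lists were chosen with earlier results of these data known, so no excess over these shares is read from the 2 counts. Both counts were 0 without hormone 1, hormone 2 or control 2. B3galnt1, the globoside synthase, rose 2.59-fold to 69.0 ± 4.08 CPM in hormone libraries, against 26.7 ± 7.78 CPM in control libraries (adjusted p = 0.0201). B4galnt4, which adds N-acetylgalactosamine to N-acetylglucosamine ends, rose 5.44-fold, with 16.6 ± 9.11 CPM in hormone and 3.05 ± 1.07 CPM in control libraries (adjusted p = 0.0430). Fuca1, a lysosomal enzyme that removes fucose, rose by 0.61 on the log2 scale (adjusted p = 0.0316). Ugp2, which makes UDP-glucose, fell to 79.8 ± 5.81 CPM in hormone libraries, against 139 ± 12.6 CPM in control libraries (adjusted p = 0.0169). Cmahp, described in the table as a pseudogene of the sialic acid hydroxylase, fell to 2.60 ± 0.98 CPM in hormone libraries, against 15.1 ± 5.40 CPM in control libraries (adjusted p = 0.0184). Each of these 5 calls was lost without hormone 1, hormone 2 or control 2, and 4 of them without hormone 3 too, B4galnt4 being the exception. B4galnt4 was also lost without control 1 or control 3.

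By list, 0 genes rose and 1 of 24 fell in sugar nucleotide supply, where Pgm3 came next with a log2 fold change of 0.78 (adjusted p = 0.0684). In other extension and capping enzymes 2 of 16 rose and 1 fell, and in glycan breakdown 2 of 10 rose and 0 fell. In N-glycan branching and trimming 0 of 14 passed with edgeR, with Man2a1 at 0.66 and Man1a1 at -0.74 on the log2 scale (adjusted p = 0.0765 and 0.0887). Among genes of mucus secretion 0 of 10 passed with edgeR, with the mucin-like Selplg and Podxl at 1.35 and 0.49 (adjusted p = 0.0650 and 0.0659). DESeq2 called 5 higher and 1 lower of the breakdown list, 3 higher and 1 lower of the mucus list, 2 higher and 2 lower of the other extension and capping list, and 1 higher and 1 lower of both the supply and the N-glycan lists.

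None of the goblet and mucous cell markers passed with edgeR. Of the 6 in the table, Zg16 was at 0 in all libraries and Tff3 in every hormone library, and neither passed the count filter. The other 4 were tested with edgeR. Over the whole list DESeq2 called 1 higher and 1 lower. Spdef, a goblet cell transcription factor, had 82.5, 104 and 84.5 CPM in hormone libraries against 113, 114 and 120.2 CPM in control libraries. Agr2, a mucin-folding protein, had 53.0, 32.9 and 44.7 CPM in hormone libraries against 66.3, 214 and 125 CPM in control libraries. Clca1, a secreted goblet cell protein, had 11.4, 1.16 and 129 CPM in hormone libraries against 0.285, 0.911 and 1.03 CPM in control libraries (adjusted p = 0.144, 0.0731 and 0.103 in this order). Fcgbp, a mucus protein, had 2208, 1601 and 2028 CPM in hormone libraries against 306, 1628 and 759 CPM in control libraries, where control 2 lay among the hormone libraries (log2 fold change 1.12, adjusted p = 0.254). The summed level of the list was 248 to 330 FPKM in hormone and 125 to 373 FPKM in control libraries, and Fcgbp alone held 194 to 269.9 FPKM of it in hormone and 41.7 to 213 FPKM in control libraries. In the luminal epithelium list edgeR called 1 of 8 genes higher, Krt8 (1.93-fold, adjusted p = 0.0164), and DESeq2 called 3 higher, Krt8, Krt18 and Epcam. Of the 8 genes 7 had a fold change above 1, Krt19 and Cdh1 also had every hormone library above every control library, and Hoxb13 had every hormone library below. The list's summed level was 1781 to 1986 FPKM in hormone and 1604 to 1889 FPKM in control libraries. The part of goblet and luminal cells in the Gcnt3 values was not tested.

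Other marker lists, whose part in the members' values was not tested, are given here as summed levels. Of 8 cell cycle genes 7 rose, with a summed 51.7 to 56.3 FPKM in hormone and 26 to 33.8 FPKM in control libraries. Of 4 endothelial genes 1 rose, with 13.2 to 18.1 FPKM in hormone and 8.85 to 16.2 FPKM in control libraries. No basal epithelial gene of 4 and no stromal gene of 8 was called by edgeR, while DESeq2 called 1 stromal gene lower. The basal list summed to 129 to 222 FPKM in hormone and 204 to 353 FPKM in control libraries, and the stromal list to 1813 to 2211 FPKM in hormone and 1888 to 4086 FPKM in control libraries.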

How the data were processed

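RNA of 6 rat prostate tissues was compared, hormone against control, with groups and replicate numbers from the sample titles. Per the labels' protocols, RNA was isolated with a column kit and made into paired-end TruSeq libraries. TopHat, Bowtie2 and HTSeq were used, per the submitters' processing notes, with no versions. Build, annotation, strand setting and multi-mapping: not given in the sources used here. Raw counts and FPKM come as the authors deposited them, per gene. The deposited FPKM equalled count divided by gene length and library total, within 0.000816% over 9136 genes.

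The main test on the counts was edgeR 4.0.16 (R 4.3.3): filterByExpr (minimum count 10, minimum total 15), TMM, robust quasi-likelihood F-test, two-sided, no block, 4 residual degrees of freedom, Benjamini-Hochberg over 14003 genes, called under 0.05. CPM are TMM-scaled, with mean ± SD and n = 3 per group; SE is the size of the log2 fold change over the root of F. Floors cover counting error only, with 3 counts per library. Alternatives were other scalings and filters, DESeq2 1.42.0, limma 3.58.1 on log2(FPKM + 1), + 0.1 or + 5, a replicate block, and leaving out each library.

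Members, companion lists and markers were chosen with earlier results of these data known. Values are given for called members and, per family, the most abundant member and the member with the smallest p; members and non-members named beyond this were chosen after their values were seen. Promoter windows are RefSeq's. The values of 1 called companion gene are not reported here.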

Additional observations from a re-analysis of the deposited data

How the results depend on the processing

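The count of members called higher was 3 in the main test and in 8 of the 11 other settings. It was 6 with DESeq2 and 1 with limma on log2(FPKM + 1) without a filter. No member was called lower in any of these 11 settings. With 1 library left out, 1 to 4 members were called higher and 0 to 1 lower, Galnt9 without control 3 (adjusted p = 0.0231) and Galnt5 without control 1. Companion genes called higher were 4, but 12 with DESeq2, 2 with library totals only, with limma 2 at a pseudocount of 1, 1 at 0.1, 2 at 5 and 0 at 1 without a filter, and 0 to 5 with 1 library left out. Those called lower were 2, but 6 with DESeq2, 1 with unfiltered limma, and 0 to 3 with 1 library left out. Among all genes tested, the calls numbered 458, but 1492 with DESeq2, 258 with limma on log2(FPKM + 5) and 130 with unfiltered limma, and 64 to 463 with 1 library left out. Higher calls made up 72.9% of the 458, 60.6% with DESeq2, 53.0% with library totals only and 55.8% to 56.5% with filtered limma. The median log2 fold change of the members was 0.08, but -0.0469 with library totals only and, with limma on log2(FPKM + 1), + 0.1, + 5 and unfiltered, -0.0148, -0.0115, -0.0140 and -0.0118. With 1 library left out it was between 0.0553 and 0.14. FPKM carry no composition factor, and with log2(FPKM + 1) the median of all genes was -0.10. The causes of the other differences were not tested.

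The replicate numbers are shared between the groups. Same-numbered libraries showed no shared deviation (correlations of 0.0829, -0.0570 and 0.0698), beside -0.1652 to 0.1204 for differently numbered libraries. With 3 libraries per group these correlations cannot exclude a pairing. With the replicate block 2 members were called, and Galnt11 was not (adjusted p = 0.0534).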
